A study of Mus musculus with 57 samples.

Results

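To assess whether adding NMN to repeated doxorubicin (Doxo) changed heart gene expression, the 6 Doxo-NMN hearts of the chronic study were compared with the 6 Doxo hearts of the same study, which makes 12 of the 57 hearts of the series. All were hearts of wild-type male C57BL/6 mice, aged 14 to 16 weeks at the first injection, taken on day 60 from mice alive on that day. Both groups received 5 i.p. injections of 4 mg/kg Doxo, a cumulative dose of 20 mg/kg, and the Doxo-NMN mice also received 500 mg/kg/day NMN in the drinking water from 5 days before the first injection. The 5 Ctrl hearts came from mice given vehicle, no group received NMN without Doxo, and which part of the heart was taken is not given in the sources used here. Each library is 1 heart, and the labels do not say whether mice shared a cage or a day of handling. Poly(A) RNA was sequenced and counted per gene, with 17888279 to 23629270 counts in Doxo hearts and 20531066 to 23862287 in Doxo-NMN hearts.

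NAD+ is the coenzyme that carries electrons from fuel oxidation to the mitochondrial respiratory chain, and it is also consumed by sirtuins and by the PARP enzymes that respond to DNA breaks. Nicotinamide mononucleotide (NMN) is its immediate precursor in the salvage pathway: NAMPT makes NMN from nicotinamide, NMRK kinases make it from nicotinamide riboside, and NMNAT enzymes turn it into NAD+. Doxorubicin is an anthracycline that poisons topoisomerase II and damages heart muscle. Heart tissue depends on mitochondrial ATP, so genes of NAD+ metabolism, mitochondria, DNA damage and cardiac stress were looked at first.

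Each group held a heart that stood apart from the others. The mean correlation of log2 CPM (gene counts scaled to a common library total) with the hearts of the same group was 0.964 in Doxo heart 2, against 0.982 or more in the other Doxo hearts, and 0.976 in Doxo-NMN heart 4, against 0.984 or more in the other Doxo-NMN hearts. In Doxo heart 2, *Ctgf*, a matrix-associated growth factor, stood at 516 CPM against 76.1 to 156 CPM in the other 5, *Col1a1*, the main collagen chain, at 15.1 against 99.3 to 106 CPM, and the 5 red cell markers at a sum of 16.2 CPM against a group median of 262 CPM. Doxo-NMN heart 4 had the highest sum of the fibroblast markers (1371 CPM), the smooth muscle markers (1262 CPM) and the white fat markers (27.5 CPM), and the lowest sum of the cardiomyocyte markers (65390 CPM, against a highest sum of 91560 CPM in the group). Doxo-NMN heart 3 had 174 CPM of *Fosb*, an immediate early gene, where the other 5 had at most 4.1 CPM. The Ctrl hearts were fitted together with these. Ctrl heart 1 had a mean correlation of 0.969 with its group, against 0.982 or more in the other Ctrl hearts. Cardiomyocyte markers were detected in every heart, and the 5 lung markers summed to at most 0.517 CPM in any heart. In bulk tissue, fewer cells of a type and less RNA per cell cannot be told apart.

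Adding NMN to chronic Doxo left no gene past the test. Of the 14960 genes tested, 0 were called at an adjusted p under 0.05 (0%, edgeR's quasi-likelihood test with Benjamini-Hochberg adjustment), and the smallest adjusted p was 0.999. DESeq2 and limma voom also called 0. At an unadjusted p under 0.05 there were 441 genes, 2.95% where 5% is the share expected of genes with no difference, of which 198 (1.32% of the tested genes) were higher and 243 (1.62%) lower with NMN. Only 3 genes had an unadjusted p under 0.001. DESeq2 had 475 genes at an unadjusted p under 0.05. Limma voom had 1552 genes (10.4%) at that level, with a smallest adjusted p of 0.275. It gave Doxo heart 2 a weight of 0.191, Doxo-NMN heart 4 a weight of 0.312 and Ctrl heart 1 a weight of 0.203. Without Ctrl heart 1, edgeR's test had 596 genes (3.95%) at an unadjusted p under 0.05.

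The differences themselves were small. The median log2 fold change was 0.00323, with 50.8% of genes above 0, and the quartiles were -0.09 and 0.09. The median fold change regardless of direction was 1.07, and 65.8% of genes differed by less than 1.1-fold. A difference of 1.5-fold or more was found in 356 genes (2.38%), 156 higher and 200 lower, of which 154 had an unadjusted p under 0.05. Those 356 genes had a median expression of 0.699 CPM, against 13.2 CPM over all tested genes, and 63 genes differed by 2-fold or more. The 6 Doxo-NMN values lay entirely above or below the 6 Doxo values in 24 genes (0.160%), 12 in each direction. With 6 hearts per group some genes separate in this way without any difference, and that share was not computed here. A lack of overlap named below therefore describes the values only.

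The same fit shows what Doxo alone gave in these hearts. Doxo vs. Ctrl called 9 genes (0.0602%) with 1174 genes (7.85%) at an unadjusted p under 0.05, 738 genes past 1.5-fold and a median absolute log2 fold change of 0.12, against 0.09 for NMN. Doxo-NMN vs. Ctrl called 6 genes, 5 of them also called in Doxo vs. Ctrl, with 707 genes (4.73%) at an unadjusted p under 0.05. These comparisons share hearts, so their values are set side by side only. A gene chosen for its NMN difference tends to the opposite sign in Doxo vs. Ctrl, since the same Doxo hearts enter both. Opposite signs of the genes named below are therefore no test of a reversal.

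**Figure D1:**
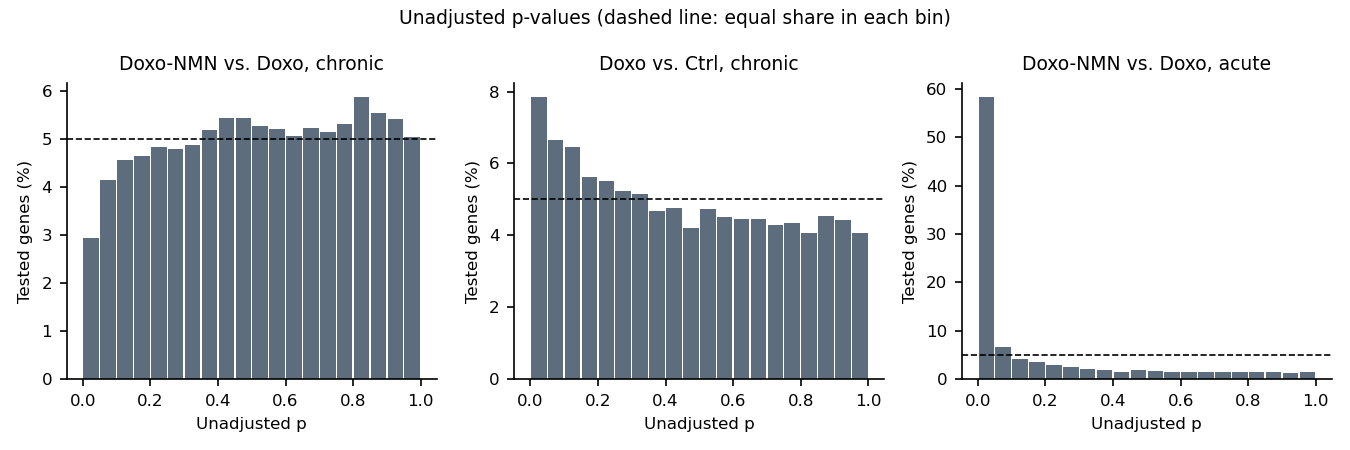
Share of tested genes (%) in bins of unadjusted p, each 0.05 wide, for Doxo-NMN vs. Doxo in the chronic study, Doxo vs. Ctrl in the chronic study and Doxo-NMN vs. Doxo in the acute study. In the chronic NMN comparison the lowest bin holds 2.95% of genes, below the dashed line at 5%, whereas it holds 7.85% for Doxo in the same hearts and 58.3% for NMN in the acute study.

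The genes that led the comparison fall into a few groups, and none passed the adjustment. The gene with the smallest p was *Gm30735*, a long non-coding RNA gene with no function assigned here (ENSMUSG00000105168, chr3:53725477-53733018, mm10). It stood at 1.32, 2.36 and 2.75 CPM (lowest, median and highest) in Doxo hearts and at 3.25, 4.10 and 4.48 CPM in Doxo-NMN hearts, and the groups did not overlap. The log2 fold change was 0.78 (SE 0.19, unadjusted p = 0.000445, 95% interval 0.39 to 1.17), and without Doxo heart 2 it was 0.67. The gene stood at -0.61 in Doxo vs. Ctrl on the same scale.

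Among the leading genes that were higher with NMN were genes of atrial muscle and a cardiac calcium channel. *Myl7*, the atrial regulatory myosin light chain, ranged from 0.275 through 0.681 to 1.37 CPM in Doxo hearts and from 0.871 through 1.80 to 67.0 CPM in Doxo-NMN hearts. The high values were those of hearts 4 (67.0 CPM) and 5 (10.6 CPM), and the remaining 4 lay between 0.871 and 2.36 CPM. Its log2 fold change was 4.07 (SE 1.02, unadjusted p = 0.000676), and 1.99 without heart 4. *Myl4*, the atrial essential myosin light chain, had its high values in the same hearts (83.8 and 14.3 CPM, with the others at 1.73 to 2.02 CPM) and a log2 fold change of 3.18 that was 1.16 without heart 4. The 8 atrial markers together, which include the stretch-induced natriuretic peptide gene *Nppa*, summed to 147 to 546 CPM in Doxo hearts and to 213 to 331 CPM in Doxo-NMN hearts. *Nppa* made up most of that sum, at 116 to 534 CPM over the 12 hearts. *Sln*, the atrial regulator of the calcium pump, stood at 25.2 and 6.37 CPM in NMN hearts 4 and 5 and at 0.248 CPM or less in the other 10. How much atrial tissue each sample held was not tested.

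The calcium channel gene was spread more evenly. *Cacna1g*, which codes for a T-type channel, stood at 11.8, 19.7 and 24.2 CPM in Doxo hearts and at 20.4, 27.9 and 33.6 CPM in Doxo-NMN hearts, with 5 of the 6 NMN hearts above every Doxo heart (log2 fold change 0.55, SE 0.15, unadjusted p = 0.00175, and 0.45 without Doxo heart 2). It was lower in Doxo than in Ctrl hearts by point estimate, at -0.34 on the log2 scale (unadjusted p = 0.0499), not past the adjustment. The list of calcium handling genes and ion channels, which does not hold *Cacna1g*, had 20 of its 26 tested genes above 0, with a median log2 fold change of 0.0873 and 0 genes at an unadjusted p under 0.05.

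*Fosb*, a member of the AP-1 transcription factor family that is induced within minutes of a stimulus, led by size and rested on a single heart. It stood at 0.345, 1.41 and 2.19 CPM in Doxo hearts and at 0.496, 2.05 and 174 CPM in Doxo-NMN hearts, and the log2 fold change of 4.48 (unadjusted p = 0.00122) was 0.48 (unadjusted p = 0.302) without Doxo-NMN heart 3. *Fosb* was the exception among the 24 leading genes: the other 23 kept an unadjusted p under 0.05 when any 1 of the 12 hearts was left out. The 24 were chosen for their small p on these same hearts, so this is not independent evidence of a difference. Over the 22 immediate early genes, 20 were above 0 with a median log2 fold change of 0.201 and 3 were at an unadjusted p under 0.05 (*Fosb*, *Fos* and *Egr3*, a zinc-finger factor of the same early response). These 3 were higher with NMN, as were 1.32% of all tested genes at that level. Without heart 3, 10 of the 22 were above 0 and the median was -0.00998.

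Smooth muscle actin and prostacyclin synthase genes were also among the 12 leading higher genes. *Acta2*, smooth muscle actin, stood at 41.4, 98.7 and 150 CPM in Doxo hearts and at 120, 141 and 333 CPM in Doxo-NMN hearts, overlapping in part. Its log2 fold change was 0.92 (SE 0.29, unadjusted p = 0.00463), 0.76 without Doxo heart 2 and 0.67 without Doxo-NMN heart 4. *Ptgis*, which makes the vasodilator prostacyclin, had a log2 fold change of 0.59 (SE 0.18) that was 0.39 without Doxo-NMN heart 4. *Cnn1*, the smooth muscle calponin, is a smooth muscle marker and not among the 12. It had 28.3 CPM in heart 4 against 1.92 to 3.07 CPM in the other NMN hearts, and its log2 fold change of 1.72 was 0.18 without that heart. Of the 5 smooth muscle markers 4 were above 0 (median 0.582), and 2 without Doxo-NMN heart 4 (median -0.00414). Other leading higher genes were *Smim3* (0.45), *Nkain4* (1.01), *Isoc2b* (0.36) and the non-coding *D730003I15Rik* (0.72), each by point estimate on the log2 scale.

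The leading genes that were lower with NMN had varied functions. *Pibf1*, a centrosome protein gene, stood at 6.57, 6.79 and 7.68 CPM in Doxo hearts and at 4.26, 5.10 and 6.03 CPM with NMN, without overlap (log2 fold change -0.42, SE 0.11, unadjusted p = 0.000777). *Tmem245*, a transmembrane protein gene, stood at 86.0, 93.5 and 97.2 CPM and at 72.8, 76.2 and 85.5 CPM, again without overlap. Its log2 fold change of -0.26 (SE 0.07, unadjusted p = 0.00174) lay beside 0.27 in Doxo vs. Ctrl (unadjusted p = 0.00147, adjusted p = 0.418 by edgeR's test). *Plekhg1*, a guanine nucleotide exchange factor gene, and *Arap2*, an Arf GTPase-activating protein gene, were at -0.35 and -0.32.

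*Mcm9*, a helicase of DNA repair by homologous recombination, stood at 4.20, 4.71 and 6.49 CPM in Doxo hearts and at 3.27, 3.53 and 4.06 CPM with NMN, without overlap (log2 fold change -0.46, SE 0.13, unadjusted p = 0.00267). *Adamts12*, a matrix protease, was at -0.76 (SE 0.23), with Doxo-NMN heart 6 at 0.671 CPM and the others at 1.20 CPM or more. *D830005E20Rik* (log2 fold change -0.41) is annotated as antisense, and its reads cannot be told apart from those of the opposite strand where counting did not use strand, which the sources used here do not state. *Dnah6* (-1.21), *Gm15626* (-1.51), *D630024D03Rik* (-1.14) and *Cyp2b10* (-1.91), a cytochrome P450, all had medians below 1 CPM in both groups. For the last of these the value was -1.09 without Doxo heart 2, which had 3.04 CPM. *Ctgf* was at -1.26 (SE 0.37, unadjusted p = 0.00330), and at -0.49 (unadjusted p = 0.0105) without that heart. The Ctrl hearts had 31.1 to 43.5 CPM of it, below all 6 Doxo hearts.

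**Figure D2:**
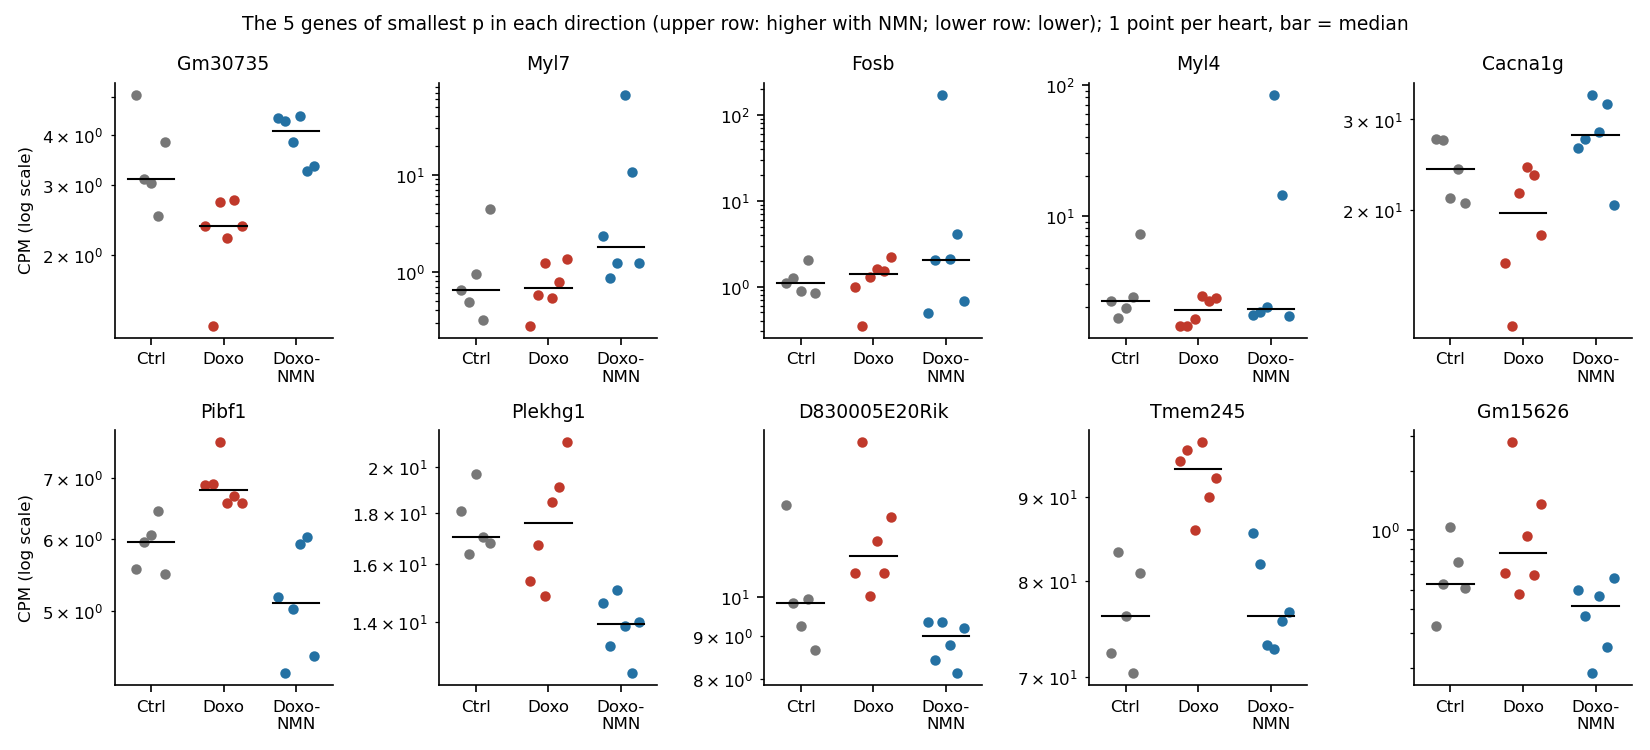
Expression (CPM, log scale) of the 5 genes with the smallest p in each direction in every chronic Ctrl, Doxo and Doxo-NMN heart, 1 point per heart with a bar at the median. Doxo and Doxo-NMN hearts do not overlap for Gm30735, Pibf1, Tmem245 and D830005E20Rik, while the Fosb difference comes with 1 NMN heart at 174 CPM and the Myl7 and Myl4 differences with 2 NMN hearts.

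Leaving out Doxo heart 2 changed which genes led. It left 436 genes at an unadjusted p under 0.05, of which 224 were among the 441 (50.8% of the 441 and 51.4% of the 436), and the smallest adjusted p was 0.0998. That gene was *Akap5*, which anchors protein kinase A near calcium channels and adrenergic receptors. It stood at 0.804 CPM in Doxo heart 2 and at 6.49 to 10.1 CPM in the other Doxo hearts, against 3.16 to 5.41 CPM in the 6 Doxo-NMN hearts and 5.42 to 7.19 CPM in Ctrl hearts. The log2 fold change was -0.66 (SE 0.31, unadjusted p = 0.0480) with all hearts and -0.89 (unadjusted p = 6.70e-06) without heart 2. Next came *Fbn1*, the microfibril protein fibrillin, with 66.2 to 84.3 CPM in 5 Doxo hearts, 20.5 CPM in heart 2 and 37.7 to 59.6 CPM with NMN (log2 fold change -0.47, and -0.66 without heart 2, unadjusted p = 0.000463). *Nav3*, a microtubule-binding protein gene, and *Adamts9*, a versican-cleaving protease gene, followed at -0.71 and -0.53. These 4 genes were chosen after their values were seen.

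Genes of NAD+ metabolism showed little difference. Of the 17 genes of NAD+ synthesis listed, 13 were expressed enough to be tested, 6 of them above 0 and 7 below, with a median log2 fold change of -0.0198, and 1 had an unadjusted p under 0.05. This was *Nmrk2*, the nicotinamide riboside kinase of muscle, at 16.3, 18.7 and 23.3 CPM in Doxo hearts and at 10.5, 15 and 20.5 CPM in Doxo-NMN hearts, where the ranges overlapped. Its log2 fold change was -0.31 (SE 0.14, unadjusted p = 0.0394), and the unadjusted p was 0.106 without Doxo-NMN heart 3. It was at 0.38 in Doxo vs. Ctrl (unadjusted p = 0.0185), and at -0.88 with NMN in the acute study (adjusted p = 0.00368 by edgeR's test).

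*Nampt*, the rate-limiting enzyme that makes NMN, stood at 136, 149 and 308 CPM in Doxo hearts and at 134, 150 and 170 CPM in Doxo-NMN hearts, so the medians were alike and the highest value was that of Doxo heart 2. The log2 fold change was -0.20 (SE 0.19), and 0.04 without heart 2. The enzymes that use NMN were at 0.14 (SE 0.09) for the nuclear *Nmnat1* and -0.02 (SE 0.12) for the mitochondrial *Nmnat3*, and *Nadk*, which phosphorylates NAD+, was at 0.12 (SE 0.08). The largest positive estimate of the list, *Afmid* of the route from tryptophan, was 0.29 (SE 0.19). Estimates of *Naprt* and *Nadsyn1*, of the route from nicotinic acid, were 0.08 (SE 0.10) and 0.10 (SE 0.12), that of the kinase *Nmrk1* was -0.13 (SE 0.18) and that of the mitochondrial NAD+ kinase *Nadk2* was -0.23 (SE 0.20). *Kmo*, *Haao* and *Ido1*, of the route from tryptophan, had medians below 1 CPM and estimates of -0.16 (SE 0.34), -0.20 (SE 0.46) and 0.16 (SE 0.40). The 18 tested NAD+ consumers, sirtuins, PARPs and CD38 among them, had a median log2 fold change of 0.0049 with none at an unadjusted p under 0.05.

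Of the 12 genes that handle NMN, nicotinamide and related nucleosides, 8 were above 0, and 1 had an unadjusted p under 0.05. *Slc29a1*, an equilibrative nucleoside transporter, stood at 43.6, 54.1 and 56.0 CPM in Doxo hearts and at 58.8, 62.1 and 69.3 CPM in Doxo-NMN hearts, with no overlap. Its log2 fold change was 0.25 (SE 0.08, unadjusted p = 0.00563), and 0.20 without Doxo heart 2 (unadjusted p = 0.0133). The Ctrl hearts ranged from 56.4 to 72.0 CPM, and Doxo vs. Ctrl was at -0.24 (unadjusted p = 0.0111).

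Mitochondrial genes lay slightly above 0 as lists. In each list the differences were small. Of the 48 mitochondrial genes that the study picked on these hearts, all 48 were above 0, with a median log2 fold change of 0.112, and 2 had an unadjusted p under 0.05 (*Slc25a39*, a mitochondrial glutathione carrier, at 0.21, and *Mtln*, a small mitochondrial membrane protein, at 0.24). Because the study chose this panel on these hearts, its direction is not independent evidence. Without Doxo heart 2, 44 of the 48 were above 0, the median was 0.0491 and 0 had an unadjusted p under 0.05. The median log2 level of the panel relative to Ctrl was -0.432 in Doxo heart 2, -0.201 to -0.0836 in the other Doxo hearts and -0.185 to 0.0357 in Doxo-NMN hearts.

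Lists that do not come from the study gave the same sign, with smaller values over all hearts. The panel also holds mitochondrial ribosome and respiratory chain genes, so these lists are not independent of it. Above 0 were 63 of 77 mitochondrial ribosome genes (median log2 fold change 0.066, with 2 at an unadjusted p under 0.05, *Mrps36* and *Mrpl37*), 29 of 36 complex I subunits (0.0781, with none), 27 of 29 genes of complexes II to IV (0.062, with 1) and 15 of 17 ATP synthase genes (0.0543, with none), beside 50.8% of all genes. Without Doxo heart 2 these counts were 59, 26, 26 and 15. The medians were then 0.048, 0.0419, 0.0531 and 0.0444, near the 0.0491 of the study's panel. By heart, the median log2 level of the mitochondrial ribosome genes relative to Ctrl was 0.137 and 0.157 in Doxo-NMN hearts 5 and 6, above every Doxo heart, while the other 4 NMN hearts lay within the Doxo range or at its upper edge (-0.105 to -0.00581, against -0.157 to -0.00608), and the group medians were -0.0253 with NMN and -0.0315 in Doxo hearts. For complex I the same hearts 5 and 6 stood highest, at 0.118 and 0.211, above the Doxo range of -0.228 to 0.0637. The respiratory chain gene with the smallest p was *Cox6a1*, a subunit of complex IV, at 112, 125 and 135 CPM in Doxo hearts and 142, 152 and 198 CPM with NMN, which did not overlap (log2 fold change 0.40, SE 0.12, unadjusted p = 0.00473, and 0.38 without Doxo heart 2). Of the 11 tested protein genes encoded in mitochondrial DNA, 8 were above 0, and 3 without Doxo heart 2.

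The 34 genes of PML nuclear bodies, nuclear structures tied to DNA damage and senescence, which the study also picked on these hearts, were all below 0 with a median log2 fold change of -0.118. Only *Topbp1*, an activator of the ATR checkpoint kinase, had an unadjusted p under 0.05 (-0.18, SE 0.08), and without Doxo heart 2 there were 4 genes above 0 and a median of -0.0804. The panel median per heart, relative to Ctrl, was 0.0438 to 0.237 in Doxo hearts and -0.0947 to -0.00382 in Doxo-NMN hearts. Doxo heart 2 was the highest of the 12, and the groups did not overlap on a panel chosen for that direction. Among the 38 tested DNA damage and repair genes, 31 were below 0 (median -0.0748, none at an unadjusted p under 0.05), and among 24 p53 targets 14 were below 0, with *Cdkn1a*, the cell cycle inhibitor p21, the only one at an unadjusted p under 0.05.

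Several stress programs had negative estimates that were smaller or turned positive without Doxo heart 2. *Cdkn1a* stood at 15.4, 23.7 and 117 CPM in Doxo hearts and at 11.9, 16.9 and 22.3 CPM in Doxo-NMN hearts, and its log2 fold change of -1.13 (unadjusted p = 0.00731) was -0.36 (unadjusted p = 0.0465) without heart 2. *Fkbp5*, a chaperone gene induced by glucocorticoids, had 197 CPM in heart 2 and 13 to 17.8 CPM in the other Doxo hearts, against 13.5 to 24.3 CPM in Doxo-NMN hearts. Its estimate turned from -1.31 to 0.26 without heart 2. Of 14 glucocorticoid-induced genes 13 were below 0 (median -0.45), but 10 were above 0 without heart 2 (median 0.0817), and of 14 atrophy and FOXO genes 12 were below 0 (median -0.267), but 8 were above 0 without it (median 0.0258). *Myh7*, the slow myosin heavy chain re-expressed in stressed ventricles, behaved likewise, with a log2 fold change of -2.23 (unadjusted p = 0.00670) and 0.05 without heart 2.

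**Figure D3:**
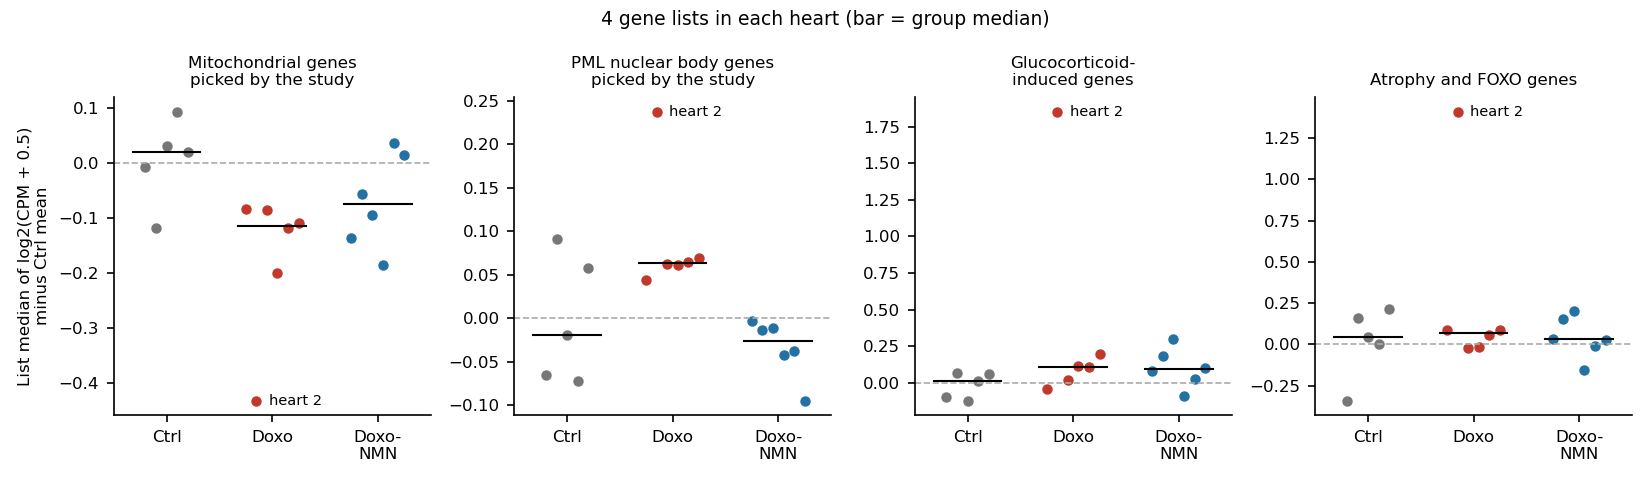
Median over the genes of 4 lists of log2(CPM + 0.5) minus the Ctrl mean, in each Ctrl, Doxo and Doxo-NMN heart, with a bar at the group median and Doxo heart 2 marked. For glucocorticoid-induced genes Doxo heart 2 lies at 1.85 and the other Doxo hearts at -0.0401 to 0.202, within or near the Doxo-NMN range of -0.0909 to 0.302.

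Heat shock genes, chaperones of misfolded proteins, kept their direction without Doxo heart 2. Of the 15, 14 were above 0 with a median log2 fold change of 0.12, and 13 without heart 2 (median 0.109). Only 1 was higher at an unadjusted p under 0.05, beside 1.32% of all tested genes. By heart, the median log2 level of the list relative to Ctrl was -0.384 to -0.0982 in Doxo hearts. It was -0.35 to 0.0835 in Doxo-NMN hearts, of which hearts 1, 4 and 6 lay within the Doxo range. *Hspa1b*, the inducible HSP70, stood at 2.16, 3.84 and 6.45 CPM in Doxo hearts and at 2.07, 6.95 and 15.3 CPM with NMN (log2 fold change 0.94, SE 0.43), with overlapping ranges. In Doxo vs. Ctrl the list median was -0.266, with 7 of the 15 lower at an unadjusted p under 0.05, beside 7.85% of all genes in either direction.

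Of the 17 clock genes, 3 were lower with NMN at an unadjusted p under 0.05, beside 1.62% of all tested genes. All 3 belong to the positive limb of the circadian oscillator. *Arntl* (BMAL1) stood at 2.86, 8.43 and 10.5 CPM in Doxo hearts and at 3.12, 4.41 and 6.34 CPM in Doxo-NMN hearts, with 1 Doxo heart below every NMN heart and the other 5 above them. Its log2 fold change was -0.80 (SE 0.31, unadjusted p = 0.0165). Its partners *Npas2* and *Clock* were at -0.65 (unadjusted p = 0.0125) and -0.23 (unadjusted p = 0.0174). The count stayed at 3 without Doxo heart 2 and without Doxo-NMN heart 4. Over the whole list 10 of 17 were above 0. The time of day at which hearts were taken is not given in the sources used here, and its part in these values was not tested.

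Matrix genes depended on the hearts that stood apart. Of the 37 tested, 20 were above 0 and 3 were lower at an unadjusted p under 0.05 (*Ctgf*, the collagen cross-linking *Lox* and the membrane protease *Mmp14*), with a median log2 fold change of 0.012. There were 7 lower at that level without Doxo heart 2 (median -0.102), 5 without Doxo-NMN heart 4 (median -0.113) and 18 without Doxo heart 2 and Doxo-NMN hearts 3 and 4 together (median -0.268), with 0 higher each time. The median log2 level of the list relative to Ctrl was -1.36 in Doxo heart 2 and 0.0483 to 0.236 in the other Doxo hearts. Doxo-NMN heart 4 was the highest of its group, at 0.51. Leaving out either heart lowers the estimate by itself, so these counts are no test of NMN. The 3 hearts were chosen after the data were seen. Over all genes, 263 of 14908 tested were lower at that level without Doxo heart 2 and 413 of 14869 without Doxo-NMN heart 4. With the 3 hearts out, 483 genes of all 14982 tested were lower at an unadjusted p under 0.05 and 390 higher, none past the adjustment (smallest adjusted p = 0.140). *Col1a1* was at 0.05 with all hearts and at -0.38 (unadjusted p = 0.0216) without the 3. *Lox* stood at 12.9 CPM in Doxo heart 2 and at 2.85 to 4.10 CPM in the other Doxo hearts, and its log2 fold change of -0.73 was -0.23 (unadjusted p = 0.252) without that heart. The fibroblast markers summed to 484 to 924 CPM in Doxo hearts and to 646 to 1371 CPM in Doxo-NMN hearts, and their part in the matrix values was not tested. Their lowest sum was that of Doxo heart 2 and their highest that of Doxo-NMN heart 4, so leaving these hearts out lowers their estimates too. The median over the 8 fibroblast markers, which was 0.0314 on the log2 scale with all hearts, was -0.119 without Doxo-NMN heart 4, with 0 above 0, and -0.222 without the 3 hearts, with 5 of 8 lower at an unadjusted p under 0.05.

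Proliferation genes were below 0 in 17 of 22 (median log2 fold change -0.102), with none at an unadjusted p under 0.05. There were 3 lower at that level without Doxo heart 2 (median -0.184), 3 without Doxo-NMN heart 4 (median -0.154) and 6 without the same 3 hearts (median -0.254). Over all genes, 263 of 14908, 413 of 14869 and 483 of 14982 were lower at that level in these settings, in that order. Of 13 macrophage markers 10 were above 0 (median 0.193), also with none, and their sums of 161 to 216 CPM in Doxo hearts and 164 to 242 CPM in Doxo-NMN hearts overlapped. Endothelial and B cell markers, interferon-stimulated genes, cytokines, fatty acid oxidation, glycolysis, proteasome and cytosolic ribosome genes had medians between -0.0491 and 0.0428. Without Doxo heart 2 the median was -0.248 for the 6 B cell markers and 0.0883 for the cytosolic ribosome genes, with 52 of 56 above 0 where 37 were with all hearts.

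The 9 genes called in Doxo vs. Ctrl show where NMN could be read against a Doxo effect that passed the test in these hearts. *Sprr1a*, a cornified-envelope protein gene known as a stress gene of heart muscle, rose with Doxo by 4.02 on the log2 scale (adjusted p = 0.0181 by edgeR's test). It stood at 0.736, 1.71 and 6.08 CPM in Doxo hearts and at 0.375, 0.502 and 1.97 CPM in Doxo-NMN hearts, with overlap, against at most 0.248 CPM in Ctrl hearts. The NMN estimate was -1.55 (SE 0.49, unadjusted p = 0.00477). *Slc30a3*, a zinc transporter gene, rose with Doxo by 1.91 and was at -0.59 with NMN (unadjusted p = 0.0322). *Tgfb2*, a TGF-beta ligand, rose by 0.89 and was at -0.21 (unadjusted p = 0.127), and *Capn3*, a muscle calpain, fell by 0.81 on the log2 scale and was at 0.15 (unadjusted p = 0.283). A gene called because Doxo hearts stood far from Ctrl shares those hearts with the NMN comparison, so a value of opposite sign is given without a test of the overlap.

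The other 5 are repeat-like gene models that share sequence, shown here because reads of one might be counted for another, which was not tested. RNA sequences of these models are from GENCODE vM21 (GRCm38), given 5′ to 3′ as transcribed except for *Gm26870*. The shared sequence runs in the opposite orientation in the *Gm26870* transcript, which is shown as the reverse complement. Each sequence is an excerpt of 162 bases, or of 102 for *Gm10800*, from a transcript of 504 to 1170 bases. Capitals mark the run of 42 bases that all 5 hold.
Gm10722: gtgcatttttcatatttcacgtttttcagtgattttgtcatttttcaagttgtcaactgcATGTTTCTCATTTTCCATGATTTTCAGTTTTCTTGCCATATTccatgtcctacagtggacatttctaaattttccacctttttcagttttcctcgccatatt
Gm21738: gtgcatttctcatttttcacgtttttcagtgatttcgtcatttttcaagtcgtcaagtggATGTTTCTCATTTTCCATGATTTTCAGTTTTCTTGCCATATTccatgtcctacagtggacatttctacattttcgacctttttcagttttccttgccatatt
Gm26870: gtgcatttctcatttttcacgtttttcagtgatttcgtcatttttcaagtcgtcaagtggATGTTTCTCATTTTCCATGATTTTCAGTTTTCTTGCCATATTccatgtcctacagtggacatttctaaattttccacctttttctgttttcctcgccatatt
Gm10801: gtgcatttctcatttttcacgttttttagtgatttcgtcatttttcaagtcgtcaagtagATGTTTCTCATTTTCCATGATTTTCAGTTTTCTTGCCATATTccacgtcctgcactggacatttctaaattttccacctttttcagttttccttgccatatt
Gm10800: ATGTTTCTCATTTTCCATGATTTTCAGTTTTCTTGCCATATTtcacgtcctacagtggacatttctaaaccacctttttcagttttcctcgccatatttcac

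Their annotated positions are chr9:3000922-3002330 for *Gm10722*, chr14:19415857-19418930 for *Gm21738*, chr9:3000282-3038313 for *Gm26870*, chr2:98662237-98664083 for *Gm10801* and chr2:98666547-98667301 for *Gm10800*, so that *Gm10722* lies within *Gm26870* on the other strand. The longest run shared by a pair of models was 54 to 152 bases, and only that of *Gm21738* and *Gm26870* reached the read length of 150 bases. The transcripts of *Gm10722*, *Gm21738* and *Gm26870* matched themselves best at an offset of 234 bases (65.2%, 62.4% and 78.3% of bases), which is the unit length known for the major satellite repeat of mouse pericentromeres. How multi-mapped reads were counted is not stated in the sources used here, so the counts cannot be given to 1 locus and the 5 genes are not independent.

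Summed over the 5, Ctrl hearts had 0.792, 1.26 and 3.43 CPM, Doxo hearts 27.1, 32.4 and 42.2 CPM and Doxo-NMN hearts 13, 19.9 and 34.5 CPM. Every heart given Doxo lay above every Ctrl heart, and the Doxo and Doxo-NMN ranges overlapped. *Gm10800* held most of the counts. It rose with Doxo by 4.56 on the log2 scale (adjusted p = 2.48e-07 by edgeR's test), stood at 20.7, 23.7 and 30.8 CPM in Doxo and 9.62, 14.8 and 26.1 CPM in Doxo-NMN hearts, and was at -0.64 (SE 0.24, unadjusted p = 0.0144) with NMN. *Gm10801* was at -0.90 (SE 0.28, unadjusted p = 0.00381), *Gm10722* at -0.76 with no overlap, and *Gm26870* and *Gm21738* both at -0.69. Without Doxo heart 2 these values lay between -0.64 for *Gm10800* and -0.89 for *Gm10801*. None passed the adjustment for NMN.

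**Figure D4:**
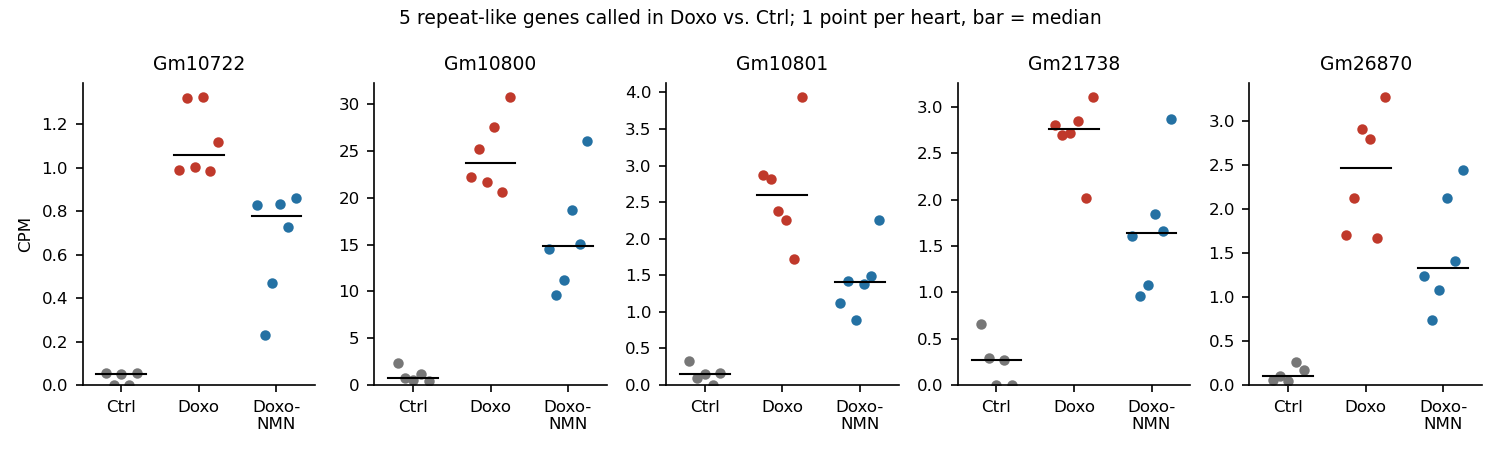
Expression (CPM) of the 5 repeat-like genes in each chronic Ctrl, Doxo and Doxo-NMN heart, 1 point per heart with a bar at the median. Every Doxo and Doxo-NMN heart lies above every Ctrl heart for each of the 5, and the Doxo-NMN medians lie below the Doxo medians, with overlapping groups except for Gm10722.

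How large an effect 6 against 6 hearts would have shown was computed from the fitted spread of each gene, as the log2 fold change detected with a power of 80%. At an unadjusted level of 0.05 the median over the 14960 tested genes was 0.42, a fold change of 1.34. At the strict level that divides 0.05 by the number of genes (3.34e-06) it was 1.04, a fold change of 2.06. By quartile of expression, from the lowest to the highest, the median size was 1.83-, 1.36-, 1.25- and 1.25-fold at the unadjusted level. A fold change of 1.5 was within reach for 69.2% of genes at that level but for 4.99% at the strict level, and a fold change of 2 for 91.3% and 47.0%.

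The 95% interval of the NMN effect lay within 1.5-fold in both directions for 10668 genes (71.3%) and within 2-fold for 13686 genes (91.5%). Among the 13 tested genes of NAD+ synthesis it lay within 1.5-fold for 6, among the 77 mitochondrial ribosome genes for 76, among the 36 complex I subunits for 36 and among the 14 glucocorticoid-induced genes for 3. For *Gm30735*, *Pibf1* and *Tmem245* the detectable sizes at the unadjusted level were 0.55, 0.31 and 0.21 on the log2 scale. Smaller differences would pass at that level with a power below 80%. These genes were chosen for their small p on these same hearts, so the unadjusted level understates the size needed to single them out. None of them passed the adjustment.

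**Figure D5:**
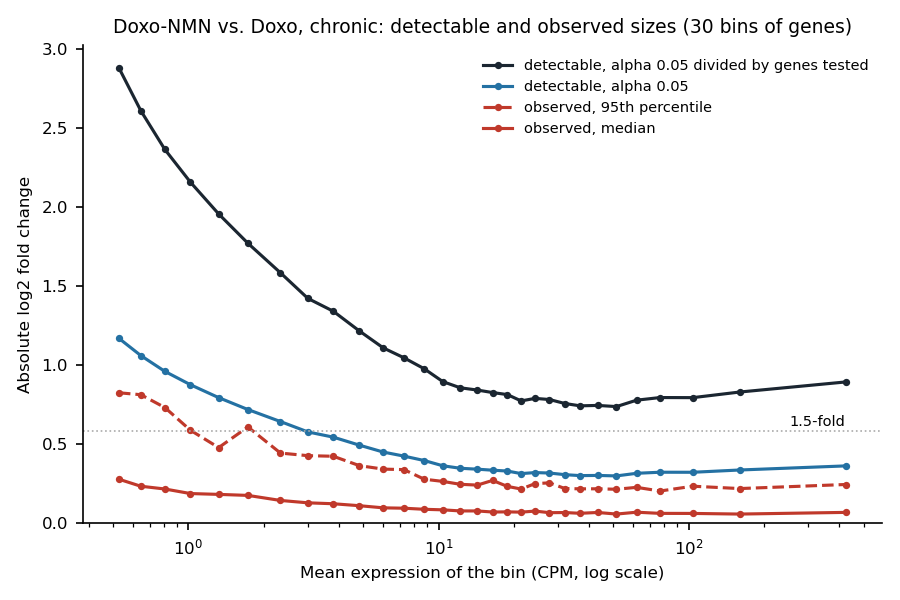
Absolute log2 fold change against mean expression (CPM, log scale) in 30 bins of tested genes: the sizes detectable with 80% power at an unadjusted level of 0.05 and at 0.05 divided by the number of genes, and the median and 95th percentile of the observed differences. Observed medians lie below both detectable sizes in each bin, and over all genes the observed median is 0.09 against a detectable 0.42.

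In the acute study, mice purchased at 9 weeks of age received a single 20 mg/kg Doxo injection with or without 180 mg/kg/day i.p. NMN. Hearts were taken on day 5, from 13 mice per group. Age, dose, route, duration and number of hearts differ from the chronic study, so the values stand side by side. There, NMN called 7554 of 14240 tested genes (53%; 3656 higher and 3898 lower), 2428 of them by 1.5-fold or more. The median standard error of a log2 fold change was 0.106 there and 0.144 in the chronic hearts, and the median detectable sizes at the unadjusted level were 0.31 and 0.42. Of the 2179 acute genes past 1.5-fold that were also tested here, 1810 (83.1%) had an acute difference at or above the size detectable in the chronic hearts, and for 1908 (87.6%) the acute value lay outside the chronic 95% interval. These genes were selected on their acute values, which tends to enlarge those values, and the acute error was not counted. Both shares are therefore no test of a difference between the studies, which the interaction below addresses with the error of both. The median absolute log2 fold change of the 2179 genes was 0.82 there and 0.14 in the chronic hearts. Of them, 94 had an unadjusted p under 0.05 in the chronic study and 1531 (70.3%) had the same sign. Across the 13195 genes tested in both, the Spearman correlation of the log2 fold changes was 0.317, and 0.0482 without Doxo heart 2. Genes are not independent replicates, and the points of a study share its hearts.

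Whether the NMN effect differed between the regimens was tested by an interaction over the 38 Doxo and Doxo-NMN hearts of both studies. It called 13 of 14798 genes (0.0878%; edgeR's quasi-likelihood test with Benjamini-Hochberg adjustment), with 3182 (21.5%) at an unadjusted p under 0.05. *Palmd*, which codes for palmdelphin and had the smallest p, was at -0.93 with NMN in the acute study and at 0.01 in the chronic study, a difference of 0.93 (SE 0.14, adjusted p = 0.00151). *Ddx3x*, an RNA helicase, was at -0.83 and -0.09 (adjusted p = 0.0241), and *Socs3*, an inhibitor of cytokine signalling, at -3.74 and 0.49 (adjusted p = 0.0241). *Fos*, a partner in AP-1, was at -3.16 and 2.40, and its difference of 5.54 (adjusted p = 0.0241) was 3.51 (adjusted p = 0.0890) without chronic Doxo-NMN heart 3, where *Socs3* had an adjusted p of 0.0675. Without chronic Doxo heart 2 the adjusted p was 0.0508 for *Ddx3x* and 0.0521 for both *Fos* and *Socs3*. In the other direction, *Cep128*, a centriole protein gene, was at 0.78 and -0.37, and *Etl4* at 0.62 and -0.23 (both adjusted p = 0.0177). Leaving out acute Doxo heart 6 raised the count to 1545, in which all 13 were kept, and DESeq2 called 433. The studies were sequenced at different sites, and site and regimen cannot be told apart.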

How the data were processed

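Gene-level RNA-seq counts of the 17 chronic hearts were analysed, with the 40 acute hearts beside them. The deposited values are counts per gene made by the authors, who selected poly(A) RNA, aligned single-end reads to mm10 with STAR and counted them with featureCounts. Versions in the submitters' processing notes are STAR 2.7.3a and featureCounts 2.0.0, and the annotation release is not given in the sources used here. The counts are whole numbers, not normalized, for 54658 genes, of which 21664 had no count. Total counts were 17769886 to 23862287 per chronic heart.

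Testing used edgeR 4.0.16 under R 4.3.3 (filterByExpr by group, TMM, quasi-likelihood F test in its default form, Benjamini-Hochberg adjustment over 14960 genes), fitting all 17 hearts together. Groups came from the labels. CPM are counts scaled to a common library total after TMM. Detectable sizes used a power of 80% and each gene's standard error. DESeq2 1.42.0 and limma 3.58.1 (voom with sample weights), another scaling, other filters, robust dispersions, a replicate block and leaving out hearts were alternatives. Identifiers and positions are from GENCODE vM21, which matched 54106 of 54658 symbols by name. Genes named were drawn from the 12 with the smallest p in each direction, the genes called in Doxo vs. Ctrl, the tested genes of NAD+ synthesis and the leading genes of each list, except where said. A gene that this rule names is not reported here. Members and lists were chosen with earlier results of these data known. The calculations were tested on simulated data. No 2 hearts held the same library by a comparison of their counts.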

Additional observations from a re-analysis of the deposited data

Results flagged for a closer look

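In groups of 4 to 10 hearts, the highest or lowest heart was set against the nearest other by the gap between them as a share of the group's range. Of 201 groups looked at, 26 had a heart beyond the 95% critical value, 19 of them in Doxo or Doxo-NMN hearts. About 1 in 20 would be expected of independent groups that were not selected. These groups include genes chosen for their small p on the same hearts, and the same hearts recur in many of them. The comparison with 1 in 20 is therefore no test. The shares below are for log2 values of CPM, or for correlations.

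Doxo heart 2 was lowest for Gm30735 (share 0.682; 1.32 CPM, next 2.21), highest for Nampt (0.854; 308 CPM, next 154), lowest for the red cell marker sum (0.783; 16.2 CPM, next 183), highest for the neutrophil marker sum (0.716; 21.8 CPM, next 3.97), lowest for the fibroblast marker sum (0.759; 484 CPM, next 791) and lowest for the mean correlation with its group (0.895; r of 0.964, next 0.982). Doxo heart 3 was highest for Pibf1 (0.695) and Doxo heart 5 lowest for Gm21738 (0.669).

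Doxo-NMN heart 4 was lowest for the cardiomyocyte marker sum (0.667) and the brown fat marker sum (0.743), highest for the white fat (0.784), fibroblast (0.773), Schwann cell (0.703) and cartilage and valve (0.808) marker sums, and lowest for the mean correlation with its group (0.906). Doxo-NMN heart 3 was highest for Fosb (0.704; 174 CPM, next 4.1). Doxo-NMN heart 6 was lowest for Adamts12 (0.729) and highest for Slc30a3 (0.743), and Doxo-NMN heart 1 was lowest for Capn3 (0.671).

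Ctrl heart 5 was highest for Myl4 (0.766). Ctrl heart 1 was lowest for Smim3 (0.735), Nmnat1 (0.816), Nmnat3 (0.93), Nadk2 (0.821) and the mean correlation with its group (0.832), and highest for Tgfb2 (0.729).

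The NMN effect differed between the chronic and the acute study, by edgeR's interaction test with Benjamini-Hochberg adjustment, in 13 genes. Chronic minus acute log2 fold changes were 0.93 for Palmd, 0.47 for Tmem248, 0.73 for Ddx3x, 5.54 for Fos, 4.22 for Socs3, -1.16 for Cep128 and -0.85 for Etl4.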

How the results depend on the processing

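The count of 0 genes called for NMN held under every alternative run, including each heart left out in turn, DESeq2, limma voom and a fit of only the 2 groups compared. At an unadjusted p under 0.05 the 441 genes became 1552 with limma voom and sample weights, 1490 with no low-count filter (32994 genes tested), 335 to 747 with 1 heart left out (747 without Doxo-NMN heart 4) and 873 with 3 hearts left out together (Doxo heart 2 and Doxo-NMN hearts 3 and 4), an alternative added after seeing the data. The installed edgeR uses its older quasi-likelihood method by default, so the older method is the one reported, and the newer method, also added, gave 460. The median detectable log2 fold change of 0.424 was 0.318 with limma voom, 0.728 with no filter, 0.386 with at least 10 counts in every heart, 0.398 with only the 2 groups and 0.385 to 0.452 with 1 heart left out.

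The replicate numbers of the labels did not pair the hearts: deviations of same-numbered hearts correlated at -0.0397 to 0.409, over 0.1 in 2 of 6 pairs, and 1 of 6 hearts correlated best with its own number. With the replicate block 373 genes were at an unadjusted p under 0.05 and 0 were called for NMN, Doxo vs. Ctrl called 7 and the interaction called 3.

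The 9 genes called in Doxo vs. Ctrl became 24 with DESeq2, 54 with limma voom, 15 with no filter, 0 with at least 10 counts in every heart and 5 to 11 with 1 heart left out (5 without Ctrl heart 2, 3 or 5). The 13 interaction genes became 433 with DESeq2, 29 with RLE size factors, 31 with at least 10 counts in every heart, 33 with acute counts divided by 2 (added after seeing the data) and 4 to 1545 with 1 heart left out. The lowest of these was without Doxo heart 6, and 5, 5, 6 and 6 were called without Doxo hearts 1, 2 and 3 and Doxo-NMN heart 3, in that order. The cause was not tested. The 7554 acute calls stayed within 1.5 times under the alternatives run. Of the 24 leading genes, 6 moved by over 1.5 times with 1 heart left out, and none changed direction under the alternatives run. They were chosen by p on the same hearts, so a kept direction is not independent evidence. With 6 hearts per group, the lowest quartile of expression (up to 3 CPM) had a median detectable difference of 1.83-fold at the unadjusted level, and the groups hold only mice that survived to day 60.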

Other observations

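Ramp1, which pairs with the calcitonin receptor-like receptor to form the CGRP receptor, was called in Doxo-NMN vs. Ctrl (adjusted p = 0.0162 by edgeR's quasi-likelihood test) and not in Doxo vs. Ctrl (0.42 on the log2 scale, adjusted p = 0.454). It stood at 7.24 to 8.88 CPM in Ctrl, 8.90 to 12.3 CPM in Doxo and 11.5 to 16.8 CPM in Doxo-NMN hearts, and Doxo-NMN vs. Doxo was at 0.34 (SE 0.11, unadjusted p = 0.00790). Tfeb, a master regulator of lysosome genes, stood at 33.8 to 47.0 CPM in Doxo and 40.1 to 56.0 CPM with NMN (log2 fold change 0.26, SE 0.10, unadjusted p = 0.0126). Of 25 autophagy genes 10 were above 0, and 18 without Doxo heart 2. Cd300lb, an activating receptor of myeloid cells, stood at 0.230 to 0.785 CPM in Doxo and 0.798 to 1.05 CPM in Doxo-NMN hearts without overlap (0.73, SE 0.27, unadjusted p = 0.0126), and Doxo vs. Ctrl was at -0.75. Brca1, a DNA repair gene, was at 1.60 in Doxo vs. Ctrl (unadjusted p = 0.000379, adjusted p = 0.239) and at -0.60 with NMN (unadjusted p = 0.0653), with levels under 1 CPM in every heart. These genes were chosen after their values were seen.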
